A study of Mus musculus with 6 samples.

Results

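The genes described here are 29 named components of the DNA damage repair machinery of the mouse, taken by symbol from a table of FPKM, a level scaled to transcript length and library size, for 21878 genes of the intestinal crypt. All 29 were in the table. They comprise 10 genes of homologous recombination, 2 of the single-strand DNA binding complex RPA, 4 of the Fanconi anaemia pathway, 6 of classical end joining, 2 of PARP and polymerase theta dependent end joining, 4 checkpoint kinases and 1 gene of mismatch repair. The libraries were made from crypt RNA of the strain C57BL/6, with 2 in each of 3 groups. Control crypts (replicates 2 and 3) were from mice without abdominal irradiation, AIR crypts (replicates 1 and 3) from mice 3 days after it, and AIR + MPLA crypts (replicates 1 and 3) from mice 3 days after it that were also treated with MPLA, an agonist of Toll-like receptor 4 derived from bacterial lipid A. MPLA is named for that group by the sample titles and the series' design, while its treatment label names irradiation alone, and the radiation dose and the schedule of MPLA were not found in the labels. No label states that each library is a different mouse, and a p-value here therefore reflects library-to-library spread that could be technical.

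Ionising radiation breaks both strands of DNA. Homologous recombination copies the lost sequence from the sister chromatid and works in S and G2 phase, whereas end joining seals the ends directly in any phase. The Fanconi pathway removes crosslinks and protects stalled forks, mismatch repair corrects replication errors, and the checkpoint kinases ATM and ATR sense damage and act through CHEK2 and CHEK1. In the crypt most dividing cells are stem and transit-amplifying cells, and many recombination genes are transcribed mainly in cells that replicate their DNA. A bulk library cannot tell fewer cells of a type from less RNA per cell.

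Between 9842 and 10179 genes reached 1 FPKM in a library, and the depth in reads is unknown. For Control replicate 2 the single-sample file and the series column carrying its number disagreed (FPKM totals of 381669 and 503961), while the other 5 libraries were the same in both places. Its own file was used, and values from the series column are given where they change the call of any of the 29 genes. Of 11 epithelial and crypt markers none was at 0 in any library, and their summed level was 7034 and 13213 FPKM in Control, 4273 and 4340 in AIR, against 6518 and 6265 in AIR + MPLA. The highest single marker made up 2890 and 9079 FPKM of the Control sums, and the lowest was at 0.266 and 0.269 FPKM in AIR. Of the 11 markers 6 were lower in AIR than in Control (18.7% of all tested genes were), and 5 were higher with MPLA than in AIR (19.5% of all tested genes). Of 10 fibroblast, muscle and endothelial markers none reached 1 FPKM in any library, with sums from 0.199 to 1.70 FPKM, and Acta2, Cdh5, Des, Myh11 and Kdr were at 0 in 1 or more libraries. The 10 lymphocyte markers in the files summed to 134 and 201 FPKM in Control, 34.3 and 44.3 in AIR, against 22.0 and 32.9 in AIR + MPLA, with Cd8b1 at 0 in 1 AIR + MPLA library. All 7 that were tested were lower in AIR and in AIR + MPLA than in Control, and their part in the results below was not tested. Genes that reached 1 FPKM in 2 or more libraries were tested with limma on log2(FPKM + 1), and p-values were adjusted over all 10415 of them by the Benjamini-Hochberg method. Log2 folds on this scale understate the change of low genes. With 2 libraries a group, groups often fail to overlap by chance alone, and how many of all tested genes did so was not counted.

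In the unirradiated crypt the repair genes spanned more than an order of magnitude per unit length. The highest Control means were those of Rpa2 (20.5 ± 3.80 FPKM, SD, n = 2), Rpa1 (19.6 ± 0.500), Parp1 (16.9 ± 0.197), Xrcc6 (14.8 ± 0.179) and Msh6 (12.1 ± 1.67). Rpa2 and Rpa1 did not differ beyond their spread. Next came Chek2 at 7.62 ± 0.406 FPKM, and the lowest were Brca2 at 1.22 ± 0.839 and Polq at 0.949 ± 0.401. Brca2 did not stand apart from Rad54b (1.49 ± 0.346) beyond this spread. Polq, the polymerase of theta-mediated end joining, was the 1 member that stayed below the filter, at 1.23 and 0.665 FPKM in Control, 0.723 and 0.812 in AIR, against 0.587 and 0.482 in AIR + MPLA. It was not tested.

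AIR was compared with Control to see which repair transcripts differed 3 days after irradiation. Of the 28 tested members 10 were lower in AIR, 1 was higher and 17 did not pass. The genes that fell were Rad54l, Xrcc3 and Exo1 of homologous recombination, Rpa1 and Rpa2, the Fanconi gene Fanca, the Ku subunit gene Xrcc6, Parp1, Chek2 and Msh6. The gene that rose was Xrcc5, which encodes the other Ku subunit. The share of members that were lower was 35.7%, against 18.7% of all tested genes, and the share that were higher was 3.57%, against 8.05%. The median log2 fold was -0.365 over the members and -0.131 over all tested genes. Median-ratio scaling, which set the median of all genes to 0.000, left 8 members lower and 1 higher, without Exo1 and Rpa2. It turned the split of all called genes from 838 higher and 1948 lower into 1164 higher and 1181 lower.

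Msh6 had the largest fall of the 28. Its product pairs with a partner protein to recognise base mismatches and small loops. Msh6 (gene ID 17688, chromosome 17, 87975050 to 87990892, GRCm38.p6) stood at 13.2 and 10.9 FPKM in Control, 4.68 and 4.66 in AIR, against 8.98 and 7.78 in AIR + MPLA. The 3 groups did not overlap, with AIR lowest and AIR + MPLA between. The log2 fold of AIR against Control was -1.20 (SE 0.16, limma adjusted p = 0.00755). Parp1 encodes the poly(ADP-ribose) polymerase that marks strand breaks. Parp1 (gene ID 11545, chromosome 1, 180568891 to 180600999) was at 17.0 and 16.8 FPKM in Control, 7.23 and 7.49 in AIR, against 15.2 and 14.0 in AIR + MPLA. Both AIR libraries lay below every other library (log2 fold -1.10, SE 0.14, limma adjusted p = 0.00661).

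Both RPA genes fell. Their protein complex coats single-stranded DNA in replication and in resected breaks. Rpa1, the large subunit (gene ID 68275, chromosome 11, 75300259 to 75348454), was at 19.3 and 20.0 FPKM in Control, 10.4 and 10.9 in AIR, against 17.2 and 16.0 in AIR + MPLA (AIR against Control log2 fold -0.82, SE 0.14, limma adjusted p = 0.0112). Rpa2, the middle subunit (gene ID 19891, chromosome 4, 132768360 to 132778746), was at 17.8 and 23.2 FPKM in Control, 13.7 and 13.0 in AIR, against 17.4 and 18.4 in AIR + MPLA (log2 fold -0.57, SE 0.17, limma adjusted p = 0.0453). For each of the pair the AIR libraries lay below all others.

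Promoters were read from RefSeq (GRCm38.p6) for the members its table held, as windows of 250 bases before to 50 bases after the start of the gene. Of the 29 members 24 had a window. The letters TTCCCGC or TTGGCGC, a core bound by E2F factors that switch on S phase genes, were found on either strand in 13 of the 24 (54.2%), against 14.5% of 8455 tested genes and 7.79% of 27025 genes with a window. The letters CCAAT, the box bound by NF-Y, were in 15 of 24 (62.5%), against 43.7% of tested genes. The letters GGGCGG, a GC box, were in 16 of 24 (66.7%), against 69.3%, and TTTGAA, a cell cycle homology element, was in 1 of 24, against 14.4%. TTGGCGC and CCAAT can overlap by their shared letters on opposite strands. The E2F letters were in 4 of the 9 windows of members lower in AIR (Rpa2, Xrcc6, Chek2 and Msh6) and in 8 of 13 windows of members that did not pass. CCAAT was in 8 of the 9 windows of members lower in AIR and in 6 of the 13 of members that did not pass, and GGGCGG in 7 of 9 and in 9 of 13. A match is a description of letters and not a bound site.

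Windows are shown for the 3 genes of lowest p in AIR against Control and for Chek1, which was lower with MPLA, each 5′ to 3′ on the strand of the gene, with E2F and CCAAT letters of either strand in capitals. Msh6 (chr17:87974800-87975099, plus strand) holds a CCAAT box in reverse from 34 bases before the start and E2F letters from position 17 after it. Rpa1 (chr11:75348334-75348633, minus strand) holds CCAAT at 42 bases before and at position 43 after the start and no E2F letters. Chek1 (chr9:36726609-36726908, minus strand) holds E2F letters in reverse from position 44 and no CCAAT, and Parp1 (chr1:180568641-180568940, plus strand) holds neither.
Msh6: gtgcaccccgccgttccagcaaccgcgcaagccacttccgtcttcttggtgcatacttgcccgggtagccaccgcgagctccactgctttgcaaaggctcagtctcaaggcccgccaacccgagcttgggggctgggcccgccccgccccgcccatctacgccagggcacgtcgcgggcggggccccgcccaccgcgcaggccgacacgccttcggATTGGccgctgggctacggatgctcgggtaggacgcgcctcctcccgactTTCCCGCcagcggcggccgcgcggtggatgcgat
Parp1: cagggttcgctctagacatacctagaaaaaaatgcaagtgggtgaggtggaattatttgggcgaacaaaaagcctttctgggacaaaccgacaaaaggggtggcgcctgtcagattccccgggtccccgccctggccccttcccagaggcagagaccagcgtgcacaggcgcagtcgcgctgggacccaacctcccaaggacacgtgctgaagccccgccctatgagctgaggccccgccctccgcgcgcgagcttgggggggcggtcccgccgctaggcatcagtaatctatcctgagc
Rpa1: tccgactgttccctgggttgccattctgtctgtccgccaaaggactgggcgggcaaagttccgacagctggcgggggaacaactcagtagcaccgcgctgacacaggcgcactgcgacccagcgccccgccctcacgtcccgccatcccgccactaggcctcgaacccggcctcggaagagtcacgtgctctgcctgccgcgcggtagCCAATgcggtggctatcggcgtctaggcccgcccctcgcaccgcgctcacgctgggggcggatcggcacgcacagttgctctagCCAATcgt
Chek1: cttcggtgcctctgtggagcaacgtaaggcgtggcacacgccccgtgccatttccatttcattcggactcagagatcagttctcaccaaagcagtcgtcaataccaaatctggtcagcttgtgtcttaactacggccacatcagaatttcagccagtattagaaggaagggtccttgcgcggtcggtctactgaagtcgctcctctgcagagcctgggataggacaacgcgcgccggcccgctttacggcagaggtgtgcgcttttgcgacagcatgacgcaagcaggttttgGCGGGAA

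All 10 homologous recombination genes had log2 folds below 0 in AIR against Control, and 3 passed. With the series column of Control replicate 2 there were 6 folds below 0 and 4 above. Rad54l, a motor protein that promotes strand exchange (gene ID 19366, chromosome 4, 116094261 to 116123700), was at 4.49 and 5.08 FPKM in Control, 1.80 and 2.78 in AIR, against 3.47 and 3.09 in AIR + MPLA (log2 fold -0.83, SE 0.19, limma adjusted p = 0.0238). Xrcc3, a paralog of the strand-exchange recombinase (gene ID 74335, chromosome 12, 111803192 to 111813893), was at 3.71 and 4.04 FPKM in Control, 2.19 and 2.12 in AIR, against 3.05 and 3.37 in AIR + MPLA (log2 fold -0.63, SE 0.15, limma adjusted p = 0.0259). Exo1, an exonuclease that resects ends (gene ID 26909, chromosome 1, 175880768 to 175911396), was at 2.319 and 2.315 FPKM in Control, 1.35 and 1.15 in AIR, against 1.57 and 1.28 in AIR + MPLA (log2 fold -0.56, SE 0.16, limma adjusted p = 0.0386). In these 3 genes AIR and Control did not overlap, and for Exo1 the AIR + MPLA libraries overlapped those of AIR.

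The other 7 recombination genes did not pass. Brca1, a ubiquitin ligase subunit that promotes resection, was at 3.87 and 2.61 FPKM in Control, 3.13 and 2.84 in AIR, against 2.72 and 2.48 in AIR + MPLA (log2 fold -0.07, 95% interval -0.52 to 0.38). Brca2, which loads the recombinase onto DNA, was at 1.81 and 0.625 FPKM in Control and 1.03 and 1.22 in AIR, so that AIR lay within the Control range. Its log2 fold was -0.01 (limma adjusted p = 0.982), or 0.41 with the series column of Control replicate 2 (limma adjusted p = 0.0357). Palb2, the partner of Brca2, had non-overlapping groups but a log2 fold of -0.35 that missed the threshold (limma adjusted p = 0.150). Rad51ap1, Rad54b, Blm and Xrcc2 had log2 folds from -0.21 to -0.02, and for each of them AIR and Control overlapped. These 4 genes encode a recombinase cofactor, a relative of Rad54l, the Bloom helicase and another recombinase paralog.

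In the Fanconi pathway Fanca passed alone. Fanca, a subunit of the core ubiquitin ligase (gene ID 14087, chromosome 8, 123266294 to 123318651), was at 3.65 and 4.14 FPKM in Control, 2.07 and 2.02 in AIR, against 3.46 and 3.65 in AIR + MPLA (log2 fold -0.68, SE 0.15, limma adjusted p = 0.0208). Fancd2 and Fanci encode the pair that the core ligase ubiquitinates. Fancd2 was at 2.92 and 2.59 FPKM in Control and 1.38 and 1.91 in AIR (log2 fold -0.51, limma adjusted p = 0.0877), and Fanci at 1.87 and 1.83 and at 1.15 and 1.24 (log2 fold -0.38, limma adjusted p = 0.106). In both genes the AIR libraries lay below those of Control. Fancb, another core subunit, had a log2 fold of 0.46 that did not pass (limma adjusted p = 0.161). With the series column of Control replicate 2 Fancd2 (log2 fold -0.49, limma adjusted p = 0.0265) and Fanci (-0.34, limma adjusted p = 0.0347) passed as lower. Fancb passed as higher with it (log2 fold 0.68, limma adjusted p = 0.00658).

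The 2 Ku genes went opposite ways. Ku is the ring-shaped heterodimer that binds DNA ends first in classical end joining. Xrcc6, which encodes Ku70 (gene ID 14375, chromosome 15, 81987833 to 82040085), was at 14.6 and 14.9 FPKM in Control, 7.11 and 9.60 in AIR, and 11.5 in both AIR + MPLA libraries (log2 fold -0.77, SE 0.17, limma adjusted p = 0.0210). Xrcc5, which encodes Ku80 (gene ID 22596, chromosome 1, 72307417 to 72394953), was at 4.79 and 5.52 FPKM in Control, 7.42 and 7.74 in AIR, against 7.19 and 7.30 in AIR + MPLA (log2 fold 0.48, SE 0.15, limma adjusted p = 0.0493). Xrcc6 was thus the more abundant of the pair in Control, and in AIR replicate 1 it was below Xrcc5. Xrcc4, the scaffold of the ligation step, was at 2.90 and 1.90 FPKM in Control and 3.41 and 4.79 in AIR (log2 fold 0.59, limma adjusted p = 0.0839). It passed as higher with the series column (log2 fold 0.92, limma adjusted p = 0.00198). Lig4, the ligase itself, Prkdc, the catalytic subunit of DNA-dependent protein kinase, and Nhej1, the XLF factor, had log2 folds of 0.09, -0.41 and -0.35 and did not pass. With the series column Lig4 passed as higher (0.43, limma adjusted p = 0.0338) and Nhej1 as lower (-0.61, limma adjusted p = 0.00326).

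Of the 4 checkpoint kinases 1 passed. Chek2, the effector kinase of ATM (gene ID 50883, chromosome 5, 110839800 to 110874140), was at 7.91 and 7.34 FPKM in Control, 4.02 and 4.41 in AIR, against 5.61 and 5.64 in AIR + MPLA (log2 fold -0.73, SE 0.15, limma adjusted p = 0.0156). Chek1, the effector of ATR, was at 4.30 and 2.54 FPKM in Control and 3.74 and 4.55 in AIR (log2 fold 0.24, limma adjusted p = 0.441). Atr was at 4.52 and 1.82 FPKM in Control and 3.38 and 4.52 in AIR (log2 fold 0.32, limma adjusted p = 0.467). Atm was at 3.77 and 1.79 FPKM in Control and 1.52 and 1.88 in AIR (log2 fold -0.43, limma adjusted p = 0.242). The 2 Control libraries differed by more than any other pair of replicates in Atr, Atm and Chek1. With the series column of Control replicate 2, at 1.58 FPKM for Atr and 2.44 for Chek1, both genes passed as higher in AIR (log2 fold 0.87 and 0.55, limma adjusted p = 0.00150 and 0.00677).

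The count depended on single libraries, with its range given in the last section. Because a group then keeps 1 library, only median log2 folds are given here. They were -0.316 over the members and -0.130 over all tested genes without AIR replicate 1. Without AIR replicate 3 they were -0.405 and -0.132, without Control replicate 2 -0.163 and -0.124, and without Control replicate 3 -0.397 and -0.144. AIR + MPLA replicates 1 and 3 enter this comparison through the common variance alone, and the medians stayed at -0.365 and -0.131 without either. With the series column of Control replicate 2 there were 13 lower and 7 higher, and the 11 genes named above were all among them. Of all 10405 genes tested with that column 3884 were lower and 2606 higher.

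**Figure D1:**
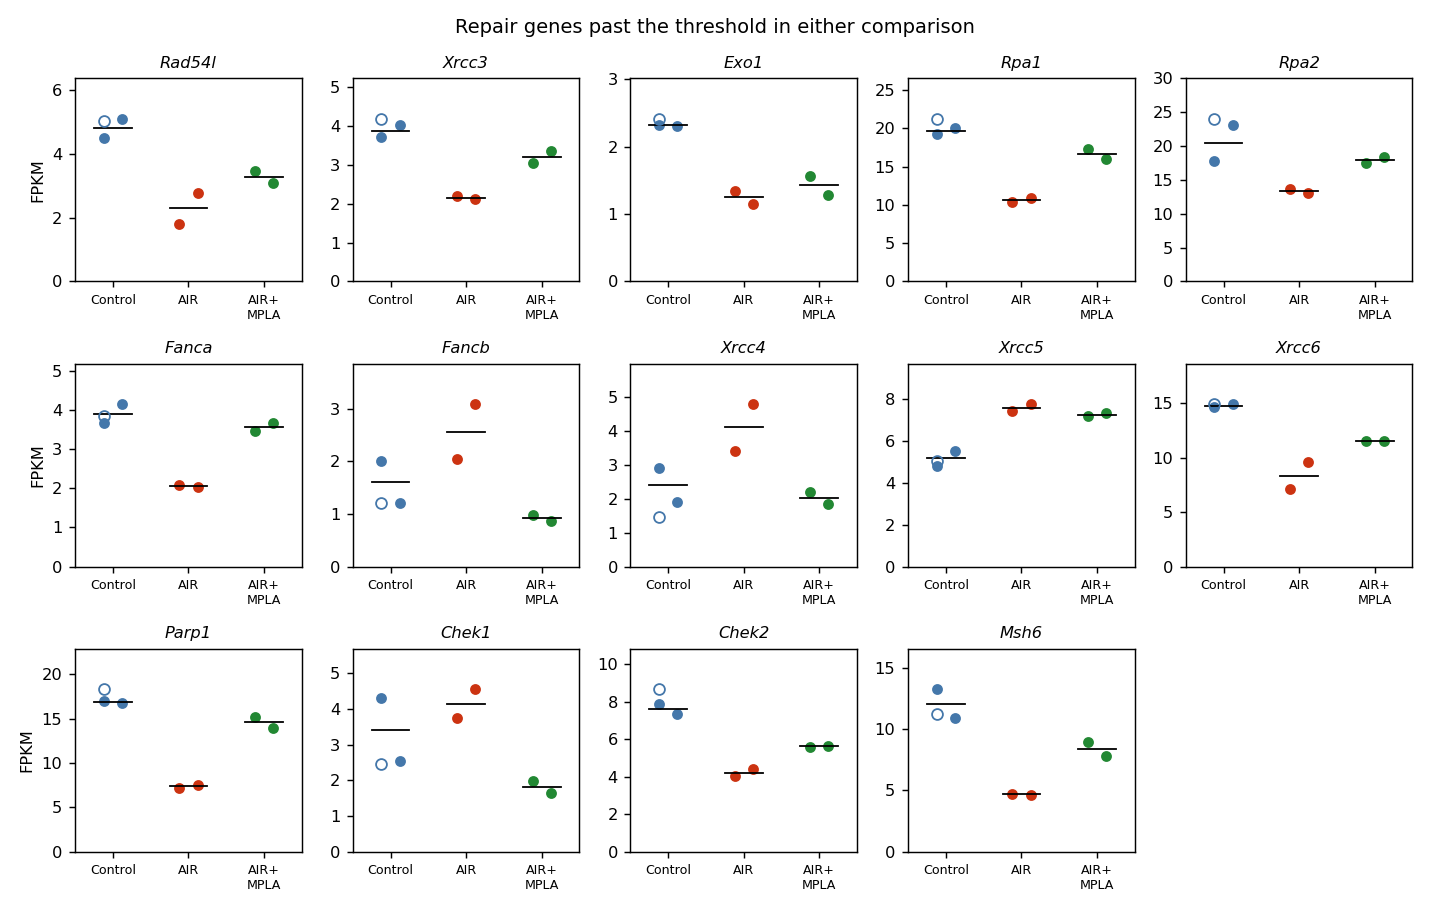
FPKM (y axis, from 0) of the 14 repair genes past the threshold in AIR against Control or in AIR + MPLA against AIR, with 1 point per library, the group mean as a line and the series-column value of Control replicate 2 as an open circle. For Parp1 both AIR libraries lie at 7.23 and 7.49 FPKM below all other libraries, and for Chek1 and Fancb both AIR + MPLA libraries are the lowest.

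AIR + MPLA was compared with AIR to see how the repair transcripts of irradiated crypts differed with MPLA. Of the 28 tested members 4 were higher with MPLA (Rpa1, Fanca, Parp1 and Msh6), 3 were lower (Fancb, Xrcc4 and Chek1) and 21 did not pass. The share that were higher was 14.3%, against 19.5% of all tested genes, and the share that were lower was 10.7%, against 9.9%, so the first share lay below the background and the second close to it. The median log2 fold was 0.07 over the members and 0.15 over all tested genes. Upper-quartile scaling gave 2 members higher and 4 lower, against 1204 and 1282 of all 10421 genes tested with it. Over all genes median-ratio scaling turned 2029 higher and 1031 lower into 1342 higher and 1369 lower. The comparison shares its AIR libraries with the comparison of AIR and Control, so opposite signs in the pair of comparisons are not independent.

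Parp1 was higher with MPLA by a log2 fold of 0.90 (SE 0.14, limma adjusted p = 0.0153), the largest rise among the members. Msh6 was higher by 0.72 (SE 0.16, limma adjusted p = 0.0234), Rpa1 by 0.59 (SE 0.14, limma adjusted p = 0.0254) and Fanca by 0.58 (SE 0.15, limma adjusted p = 0.0322). The AIR and AIR + MPLA libraries of these 4 genes did not overlap, by the values given above. Overlap was also absent in Rad54l and Fanci (positive folds), which did not pass. The same held for Brca1, Palb2, Blm, Lig4 and Atm (negative folds), so lack of overlap did not set called genes apart. Chek2 (log2 fold 0.35), Rpa2 (0.40), Xrcc3 (0.41), Xrcc6 (0.43) and Nhej1 (0.50) likewise had non-overlapping libraries but did not pass (limma adjusted p from 0.0707 to 0.108). With the series column of Control replicate 2, which enters here through the common variance and leaves these folds as they are, all 5 passed as higher. The limma adjusted p was then 0.0351 for Chek2, 0.00950 for Rpa2, 0.0131 for Xrcc3, 0.0281 for Xrcc6 and 0.00918 for Nhej1. Nhej1 was at 2.08 and 2.32 FPKM in AIR, against 3.34 and 3.73 in AIR + MPLA. Rad54l, Fancd2, Fanci, Exo1 and Prkdc had log2 folds from 0.11 to 0.40 and did not pass. Brca1, Brca2, Palb2, Rad54b, Xrcc2, Blm, Xrcc5, Lig4 and Atm, which did not pass either, lay between -0.30 and 0.02.

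The 3 genes that were lower with MPLA were the Fanconi subunit gene Fancb, the end joining scaffold gene Xrcc4 and the kinase gene Chek1. Fancb (gene ID 237211, chromosome X, 164980480 to 164997272) was at 2.01 and 1.20 FPKM in Control, 2.05 and 3.09 in AIR, against 0.975 and 0.865 in AIR + MPLA (log2 fold -0.88, SE 0.22, limma adjusted p = 0.0302). Chek1 (gene ID 12649, chromosome 9, 36708482 to 36726658) was at 3.74 and 4.55 FPKM in AIR, against 1.98 and 1.64 in AIR + MPLA (log2 fold -0.87, SE 0.23, limma adjusted p = 0.0322). Xrcc4 (gene ID 108138, chromosome 13, 89848914 to 90089608) was at 3.41 and 4.79 FPKM in AIR, against 2.19 and 1.86 in AIR + MPLA (log2 fold -0.74, SE 0.22, limma adjusted p = 0.0423). For all 3 the AIR + MPLA libraries lay below both AIR libraries. The promoter windows of all 3 hold the E2F letters, as do those of 1 of the 4 members higher with MPLA (Msh6) and of 13 of all 24 members with a window. Atr, at 2.13 and 1.84 FPKM with MPLA, had a log2 fold of -0.72 (limma adjusted p = 0.118), and Rad51ap1, at 4.56 and 6.07 in AIR and 3.68 and 2.82 with MPLA, had -0.57 (limma adjusted p = 0.0581). Both missed the threshold, and with the series column of Control replicate 2 both passed as lower (limma adjusted p = 0.00444 and 0.0217), which made 9 members higher and 5 lower. Of all 10405 genes tested with that column 3584 were higher and 2140 lower. Rad51ap1 passed as lower with median-ratio scaling, as did Fancb, Xrcc4 and Chek1.

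Without any 1 of the 4 irradiated libraries none of the members, and none of all genes, passed by limma in this comparison. Between 2457 and 3665 of all genes then had an unadjusted p under 0.05. This was reached by 8 members without AIR replicate 1 and by 8 without AIR replicate 3, and by 7 and 5 without AIR + MPLA replicates 1 and 3. Control replicates 2 and 3 enter through the common variance alone. Without either of them the median log2 fold stayed at 0.066 over the members and 0.146 over all tested genes.

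AIR + MPLA was compared with Control to see which repair transcripts of the MPLA group differed from those of unirradiated crypts. None of the 28 passed by limma, and 8 had an unadjusted p under 0.05, against 1674 of all 10415 tested genes. Of all tested genes 0.835% were lower and 0.643% higher, or 532 lower and 576 higher of 10405 with the series column of Control replicate 2. The median log2 fold of the members was -0.25 and 25 of 28 folds were below 0, against a median of -0.03 over all tested genes. Atm had the lowest fold (-0.71, 95% interval -1.32 to -0.10, limma adjusted p = 0.249), with 1.28 and 1.18 FPKM in AIR + MPLA, below both Control libraries. Chek1 (-0.63, -1.16 to -0.09), Rad51ap1 (-0.58, -1.03 to -0.14) and Palb2 (-0.56, -0.95 to -0.17) followed. This order depended on Control replicate 2. Its series column brought Atm to -0.22, Chek1 to -0.32, Rad51ap1 to -0.47 and Palb2 to -0.43, and Rad54l was then lowest at -0.50. For Palb2 AIR + MPLA stood at 1.12 and 1.01 FPKM, below the AIR libraries (1.33 and 1.42) and those of Control (2.36 and 1.75). For Parp1 the log2 fold was -0.20 (-0.53 to 0.13), for Fanca -0.10 (-0.46 to 0.25) and for Rpa1 -0.23 (-0.56 to 0.10), and these intervals include falls of up to their lower bounds. Xrcc5 had a fold above 0 (0.42, 0.08 to 0.77). Without Control replicate 3, which leaves 1 Control library, the median log2 fold was -0.429 over the members and -0.028 over all tested genes. With the series column of Control replicate 2 there were 3 members lower (Exo1, Palb2 and Rpa2, limma adjusted p = 0.0477, 0.0482 and 0.0466) and 1 higher (Xrcc5, limma adjusted p = 0.0493).

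**Figure D2:**
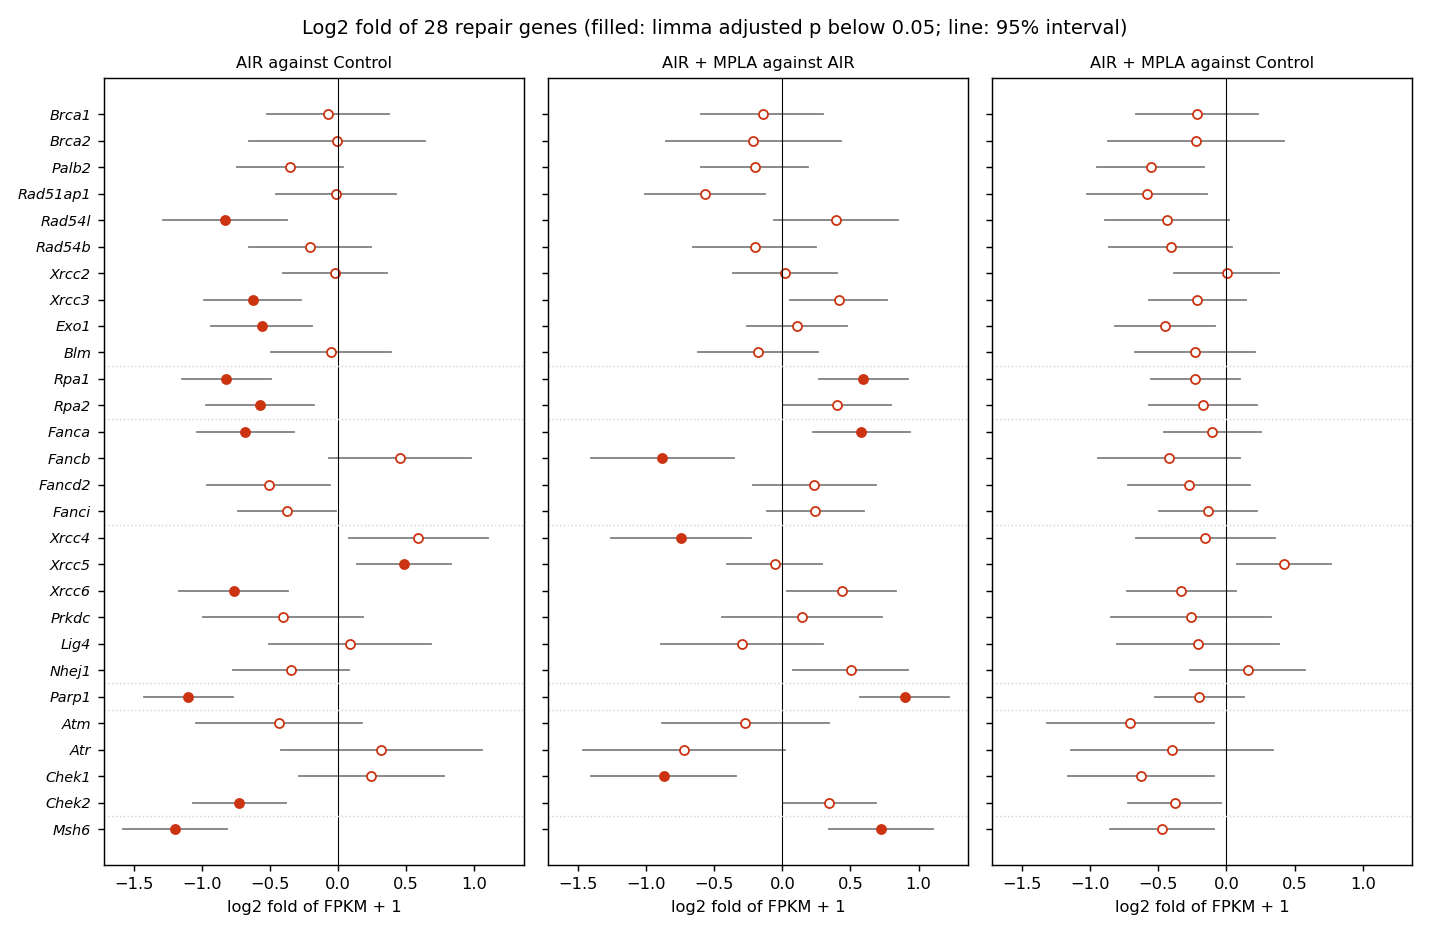
Log2 fold of FPKM + 1 (x axis) with its 95% interval for the 28 tested repair genes in the 3 comparisons, filled where limma's adjusted p was below 0.05, with dotted lines between the classes of genes. Parp1 and Msh6 fell by 1.10 and 1.20 in AIR and stood 0.90 and 0.72 higher with MPLA, and no point is filled in AIR + MPLA against Control.

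The members also differed in base composition, which the choice of genes did not use. GC content of the longest coding transcript ran from 40.8% in Atr to 56.9% in Xrcc3, with a median of 46.3% over the 28 against 50.1% over 10310 tested genes. The 10 genes that were lower in AIR had 46.4% to 56.9%. The 3 genes that were lower with MPLA had 41.0% to 41.3%, and the 4 that were higher had 48.9% to 54.5%. Over the 28 members, which share the libraries, the log2 fold of AIR against Control had a Pearson's r of -0.711 with GC content (Spearman's rho -0.785), and that of AIR + MPLA against AIR had 0.825 (rho 0.896). All tested genes followed the same course. Their median log2 fold in AIR against Control went from 0.48 in 1082 genes under 42% GC to -0.38 in 926 genes between 56% and 58%, and in AIR + MPLA against AIR from -0.78 to 0.49. The ratio of Control replicate 2 to replicate 3 also followed GC content over the members (r = -0.770), whereas with the series column of replicate 2 it had r = 0.419.

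**Figure D3:**
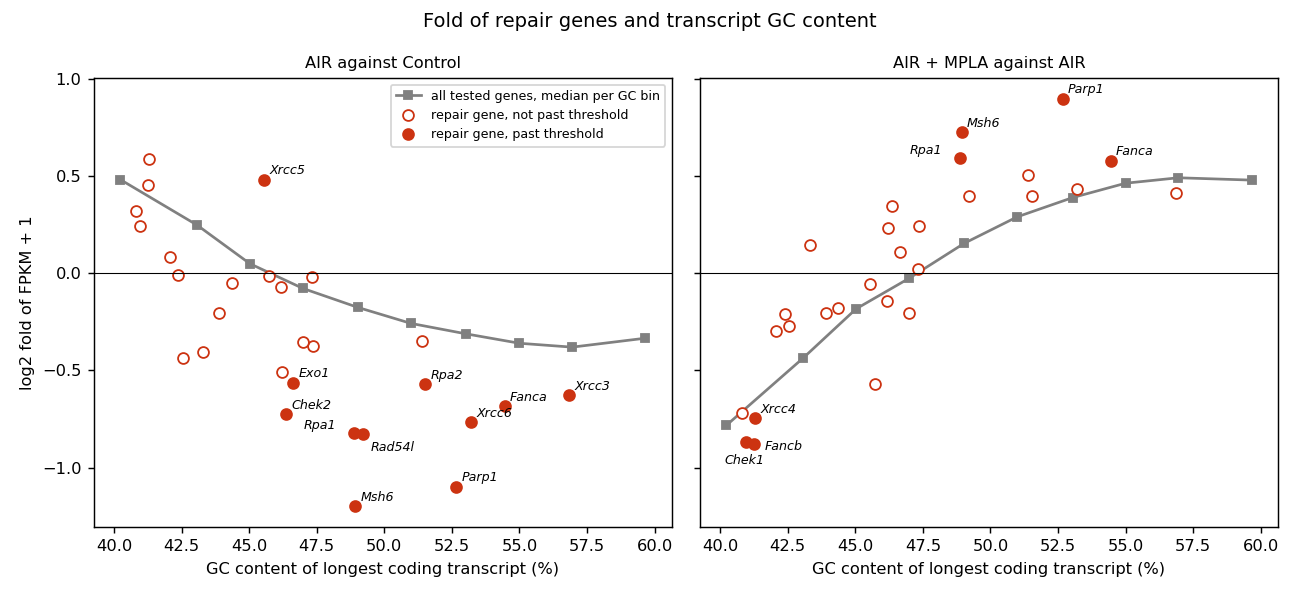
Log2 fold of FPKM + 1 (y axis) of the 28 repair genes against the GC content of their longest coding transcript in percent (x axis), with the median of all tested genes per GC bin as grey squares. In AIR + MPLA against AIR the filled points at 41.0% to 41.3% (Chek1, Fancb and Xrcc4) lie near the grey line, and those of Msh6 and Parp1 lie above it.

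When each library's trend with GC content was removed, 1282 of all 10415 tested genes were lower in AIR and 1221 higher by limma. Of the 28 members 8 were lower and none was higher. They were Msh6 (log2 fold -1.02, SE 0.13, limma adjusted p = 0.00610), Parp1 (-0.79, SE 0.13, 0.00943), Chek2 (-0.70, SE 0.12, 0.0119), Rpa1 (-0.65, SE 0.12, 0.0125), Rad54l (-0.64, SE 0.18, 0.0386) and Exo1 (-0.52, SE 0.14, 0.0362), which had also passed before, together with Atm and Prkdc. Atm had a log2 fold of -0.70 (SE 0.15, limma adjusted p = 0.0208) and Prkdc of -0.61 (SE 0.15, limma adjusted p = 0.0292). Rpa2, Fanca, Xrcc3 and Xrcc6 no longer passed (log2 folds from -0.44 to -0.26), nor did Xrcc5 (0.45, limma adjusted p = 0.0868). Adding the series column of Control replicate 2 to this removal gave 12 members lower and 1 higher, against 2549 lower and 2440 higher of all 10405 tested genes. Rad54b, Rpa2, Fancd2 and Fanci were then lower too (limma adjusted p = 0.0377, 0.00491, 0.0123 and 0.0469), and Xrcc5 was higher (limma adjusted p = 0.0487). With the GC trend alone removed, 2 members were higher and none lower in AIR + MPLA against AIR, against 635 higher and 512 lower of all 10415 tested genes. Parp1 kept a log2 fold of 0.52 (SE 0.13, limma adjusted p = 0.0458) and Msh6 one of 0.58 (SE 0.13, limma adjusted p = 0.0415), while Rpa1 just missed the threshold (0.45, SE 0.12, limma adjusted p = 0.0514) and Fanca came to 0.13 (limma adjusted p = 0.475). Chek1, Fancb and Xrcc4 came to -0.20, -0.24 and -0.11 and did not pass. Atr, whose fold had been -0.72, came to -0.04. When the series column of Control replicate 2 was used as well, Rpa1, Chek2 and Prkdc also passed as higher with MPLA (limma adjusted p = 0.0110, 0.0314 and 0.0111). That made 5 members higher and none lower, against 1815 higher and 1641 lower of all 10405 tested genes. After removal of the trend the members' folds had r = -0.296 with GC content in AIR against Control and 0.179 in AIR + MPLA against AIR.

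**Figure D4:**
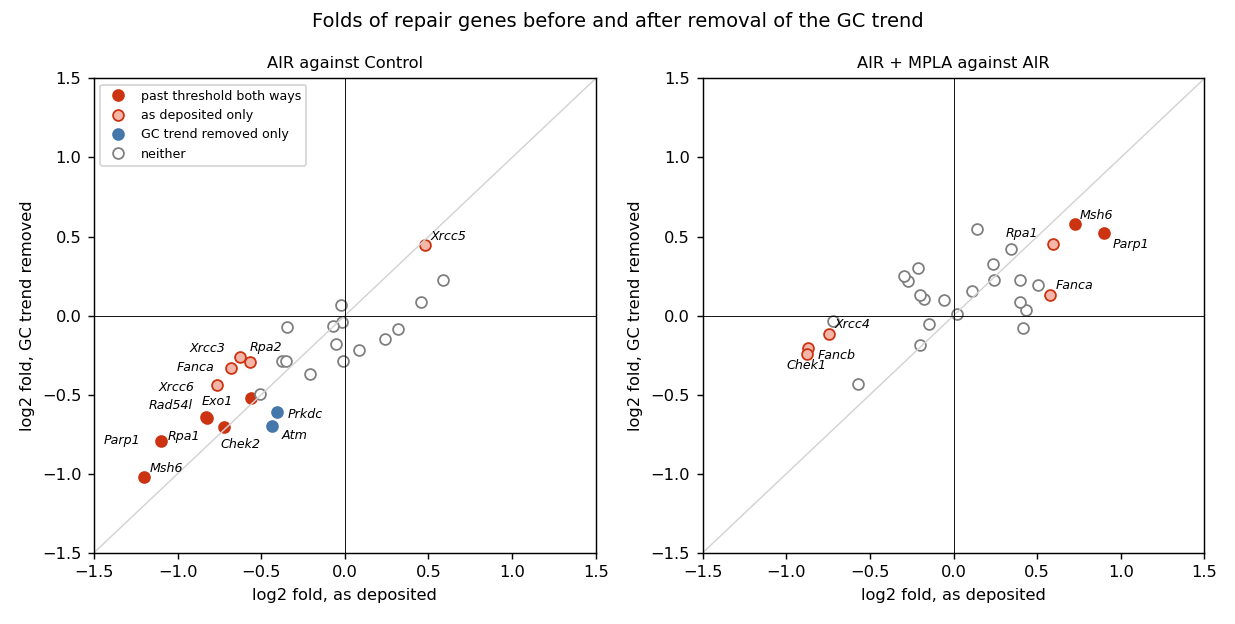
Log2 folds of the 28 repair genes from the deposited values (x axis) and after removal of each library's trend with GC content (y axis), coloured by whether limma's adjusted p was below 0.05. Msh6 and Parp1 are past the threshold on both axes in both comparisons, and Chek1, Fancb and Xrcc4 move from -0.87, -0.88 and -0.74 to between -0.24 and -0.11.

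Of 20 listed proliferation genes of S phase and mitosis 10 (50%, against 18.7% of all tested genes) were lower in AIR and none higher, with a median log2 fold of -0.79. With MPLA, relative to AIR, 8 were higher (40%, against 19.5%) and 1 lower (5%, against 9.9%), with a median of 0.32. After removal of the GC trend 1282 of all 10415 tested genes were lower and 1221 higher in AIR, and 635 were higher and 512 lower with MPLA. The counts of the 20 proliferation genes were then 11 lower and 1 higher in AIR, and 5 higher and 1 lower with MPLA. Their summed level was 661 and 657 FPKM in Control, 462 and 469 in AIR, against 548 and 525 in AIR + MPLA, and none was at 0. Mcm2, a helicase subunit, fell in AIR (log2 fold -1.35, limma adjusted p = 0.00538) and was higher with MPLA (1.06, limma adjusted p = 0.0153). Top2a, a topoisomerase of dividing cells, fell in AIR (-0.98, limma adjusted p = 0.0215) and was at 0.11 with MPLA (limma adjusted p = 0.717), or at 0.51 with the GC trend removed (limma adjusted p = 0.0485). Pcna, the sliding clamp, did not pass in either (-0.17 and -0.23), nor did Mki67, the Ki-67 gene (-0.50 and -0.41). The part of proliferation in the results on repair genes was not tested.

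Beyond the members, 113 other repair genes were tested of 123 in the files. Of these 24 were lower (21.2%, against 18.7% of all tested genes) and 4 higher (3.54%, against 8.05%) in AIR than in Control, with a median log2 fold of -0.24. With MPLA, relative to AIR, 15 were higher (13.3%, against 19.5%) and 10 lower (8.85%, against 9.9%), with a median of 0.11. On the deposited values the share lower in AIR was thus near that of all genes, and the share higher with MPLA was below it. After removal of the GC trend the counts were 20 lower and 8 higher in AIR, and 5 higher and 4 lower with MPLA. Of all 10415 tested genes 1282 were lower and 1221 higher in AIR after this removal, and 635 higher and 512 lower with MPLA. The genes named here as lower or higher in AIR passed in that comparison after this removal too. Of those named as higher or lower with MPLA, H2afx, Wee1 and Ddb1 still passed. The others, Swsap1, Rbbp8, Faap100, Xrcc1, Ung, Fen1 and Pms1, did not (limma adjusted p from 0.0509 to 0.303). In AIR + MPLA against Control none of the 113 passed by limma, and 19 had an unadjusted p under 0.05, against 1674 of all 10415 tested genes. Damage signalling had 5 lower of 15 in AIR, with H2afx, the histone variant phosphorylated at breaks, at -1.79 (limma adjusted p = 0.00453) and Wee1, the kinase that holds cells before mitosis, at -1.43 (limma adjusted p = 0.00546). Both were higher with MPLA, H2afx by 1.49 (limma adjusted p = 0.0153) and Wee1 by 0.80 (limma adjusted p = 0.0199). Of 25 other recombination genes 6 were lower in AIR, among them Rmi2, of the Bloom complex (-1.14, limma adjusted p = 0.0125), and Bard1, the partner of Brca1 (-0.71, limma adjusted p = 0.0189). With MPLA 2 recombination genes were higher, such as Swsap1 (0.85, limma adjusted p = 0.0154), and 1 was lower, the resection gene Rbbp8 (-1.19, limma adjusted p = 0.0235), whose transcript has 41.0% GC.

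Beside the counts by class that follow, 18.7% of all tested genes were lower and 8.05% higher in AIR. With MPLA 19.5% were higher and 9.9% lower. No class was tested against these shares. Of 15 other Fanconi genes 3 were lower in AIR and 2 higher and 1 lower with MPLA. Faap100, a core complex partner, was at -1.03 (limma adjusted p = 0.00955) and then at 0.68 (limma adjusted p = 0.0253). Of 11 other end joining genes 3 were lower in AIR, including the scaffold Xrcc1 (-0.89, limma adjusted p = 0.0137), and 2 were higher with MPLA, Xrcc1 among them (0.70, limma adjusted p = 0.0266). Base excision repair had 2 of 12 lower in AIR, the uracil glycosylase Ung (-1.20, limma adjusted p = 0.00782) and the flap nuclease Fen1 (-1.03, limma adjusted p = 0.00905), and these were also the 2 that were higher with MPLA (0.74 and 0.70). With the GC trend removed they came to 0.25 and 0.28 with MPLA, and no base excision gene passed. Nucleotide excision repair had 4 lower and 3 higher of 20 in AIR, and 4 higher and 5 lower with MPLA. Ddb1, a damage-binding adaptor, fell (-0.87, limma adjusted p = 0.0130) and was higher with MPLA (1.08, limma adjusted p = 0.0153). Of 5 other mismatch repair genes 1 was lower in AIR, and 1 other, Pms1, was lower with MPLA (-1.02, limma adjusted p = 0.0211). Mgmt, which removes alkyl groups from guanine, was the 1 of 10 translesion and direct reversal genes that passed in AIR, where it rose (0.83, limma adjusted p = 0.0226).

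The spans of 13 members overlap another coding gene or long non-coding RNA in RefSeq, 11 of them a coding gene (such as Fbxo11 at Msh6, Smyd4 at Rpa1, Zfp276 at Fanca, Desi1 at Xrcc6 and Klc1 at Xrcc3). Whether the authors' counting used the strand was not found in the labels, so reads of overlapping genes may be shared in these values. Of the called members Xrcc5, Chek1, Chek2, Xrcc4, Exo1 and Rpa2 overlap none, and Parp1 overlaps only a long non-coding RNA.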

How the data were processed

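RNA of intestinal crypts was sequenced from libraries made with an Illumina TruSeq kit, per the labels' protocols. Per the submitters' processing notes reads were handled with HTSeq, Cufflinks, HISAT2 and Trimmomatic on GRCm38.p6, with versions and order not given in the sources. The values the authors deposited are FPKM per gene, also in the columns headed as counts of the single-sample files; no read counts or depths were used, so no counting interval is given. Series columns were assigned to samples through their names, those headed O with a number to Control, and replicate numbers were checked for pairing. The planned count test gave way to its stated fall-back for FPKM.

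The 10415 genes that reached 1 FPKM in 2 or more libraries were fitted on log2(FPKM + 1) with limma 3.58.1 (R 4.3.3), using all 6 libraries and a mean for each group, which leaves 3 residual degrees of freedom, and eBayes with trend and robust settings, at a Benjamini-Hochberg adjusted p of 0.05. GC content came from GENCODE transcripts of the same build for 99% of tested genes, and the trend was a lowess with span 0.3. Steps were tested on simulated data. Tables and figures used Python 3.11.15, pandas 2.3.3, scipy 1.17.1 and matplotlib 3.10.9. All members are accounted for; other repair genes are named by smallest p among those called, at most 2 per list and comparison, and proliferation markers whatever their values. Members, lists and settings were chosen with earlier results of these data known, the crossed pairing after seeing the data.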

Additional observations from a re-analysis of the deposited data

How the results depend on the processing

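Msh6, Parp1 and Rpa1 were lower in AIR than in Control under every setting run except without AIR replicate 1, where no member passed. Counts of called genes in AIR against Control, of members and of all genes, were 11 and 2786. They were 3 and 1427 with only the 4 libraries compared and 20 and 6490 with the series column of Control replicate 2, where Brca2 turned from -0.01 to 0.41. With the GC trend removed as well, all genes came to 4989. A filter of 5 FPKM left 8 members, of which 7 passed, against 2143 of all 7355 genes tested with it. Leaving out each library gave 0 to 14 members and 124 to 4329 genes.

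In AIR + MPLA against AIR the counts were 7 and 3060. They were 2 and 1181 without a filter, 12 and 4899 with only the 4 libraries, 14 and 5724 with the series column and 2 and 1147 with the GC trend removed. A filter of 5 FPKM gave 3 of the 8 members it left, against 2772 of all 7355 genes tested with it. Leaving out each library gave 0 to 12 members and 0 to 4893 genes. Replicates of the irradiated groups share the numbers 1 and 3, and their deviations from the group mean correlated at -0.33. With 2 libraries a group this is the same value for both numbers and cannot decide whether the libraries are paired. The main fit used no pairing. A replicate block gave 8 members and 3562 genes, or 0 and 0 with the GC trend removed (5 and 3394 at an unadjusted p under 0.05), and the crossed pairing gave 14 and 5722. In AIR + MPLA against Control, with 0 and 154, the counts were 4 and 1108 with the series column and 6 and 1272 with the GC trend removed as well. All genes came to 297 with the GC trend removed alone, 73 without a filter, 57 with a filter of 5 FPKM and 43 with only the 4 libraries. Leaving out each library gave 0 to 5 members and 13 to 1645 genes. Causes of these shifts were not tested. No paired analysis was possible for the comparisons with Control because they share fewer than 2 replicate numbers. Where a group kept 1 library, its variance was assumed to equal that of the other groups. With 2 libraries a group and unknown depth, changes of low genes such as Polq are hard to detect.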
